A study of Diospyros kaki with 21 samples.

Results

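Pectin methylesterases (PMEs), the family of their proteinaceous inhibitors and pectate lyases were examined in the flesh of 'Jingmianshi' persimmon (Diospyros kaki), an astringent cultivar, by RNA-seq of 21 libraries. The members were unigenes, the transcripts that the authors assembled without a genome, whose Pfam entry held PF01095 (the catalytic domain of PME), PF04043 (the domain of invertase and PME inhibitors) or PF00544 (the domain of pectate lyase), unless the best NR hit was described as an invertase or beta-fructofuranosidase, which removed 3 unigenes. This rule used no expression value and took 219 of 261970 unigenes. They form 3 classes by the domains found on each unigene. The catalytic domain alone was found on 74 (PME), both domains on 18 (PME with inhibitor domain) and the inhibitor domain alone on 127 (inhibitor). PF00544 was found in 0 unigenes, so pectate lyases were taken by their KEGG orthology entry, K01728, which gave 83 unigenes. None of these 83 is among the 219 members, and they are counted apart throughout.

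Pectin is a main component of the middle lamella and the primary wall of fruit cells. PME removes methyl groups from homogalacturonan, and the demethylated chains can either be cross-linked by calcium or become substrates of pectate lyase and polygalacturonase, which cut the backbone. Many PMEs are made with an inhibitor-like domain ahead of the catalytic one, and separate inhibitor proteins, of the same family as invertase inhibitors, bind PME and block it.

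The study searched for genes linked to the rapid softening that follows removal of astringency by high CO2. Mature fruit were sealed for 1 d in air-tight containers with air (CK), with 95% CO2 (CO2), or with 95% CO2 and 1 µl per litre of 1-methylcyclopropene (CO2+1-MCP), a blocker of ethylene perception, and were then held in air. Flesh was sampled from control fruit at 0 d (CK 0 d) and from each treatment at 1 d and at 4 d in storage, with 3 libraries (A, B and C) in each of the 7 groups. The sources used here do not say how many fruit each library held, so p-values measure the spread between these libraries, which may in part be technical. Levels below are FPKM, the authors' values normalized for unigene length and depth. Fold changes are on the log2 scale, with their standard errors, from edgeR's quasi-likelihood test on the authors' estimated counts with 3 libraries against 3. A unigene was called where its adjusted p (Benjamini–Hochberg over all unigenes tested) was below 0.05 and its fold change was above 5. Only unigenes with enough counts were tested, and a fold change against a group with no count is given as a lower limit from a floor of 3 counts over that group. Shares given for DESeq2, a second tool, are over every unigene with a count in the groups compared. They are thus on a larger base than edgeR's shares and are not to be set against them. In RNA from whole tissue, fewer cells of a type and less RNA per cell cannot be told apart.

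Total counts per library ranged from 14644843 to 24943140. Libraries of one group correlated with each other at a Spearman's rho between 0.778 and 0.844 across unigenes, except that CO2+1-MCP 4 d B had a rho of only 0.699 with A and 0.660 with C. CO2+1-MCP 4 d B and CO2 4 d A also had the fewest unigenes with any count, 101500 and 105607, against up to 159812 in CK 4 d C. The summed FPKM of 12 proanthocyanidin unigenes expected in astringent flesh lay between 15.9 and 155 in every library, which does not show that each was present in each library. This sum was higher in CO2 4 d (94.8 to 155) than in CK 4 d (15.9 to 23.3). A list of 68 seed protein unigenes, of which 64 had a count, summed to between 293 and 363 FPKM in CK 4 d and between 340 and 426 FPKM in CO2 4 d. At 1 d the seed list summed to 297 to 308 FPKM in CK, 336 to 514 FPKM in CO2 and 353 to 531 FPKM in CO2+1-MCP. The 1 unigene with a best NR hit in a list of fungal and bacterial genera stayed at or below 0.59 FPKM. The part of other tissues in the results below was not tested.

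The members were uneven in length and level. Of the 219, 31 had no count in any library and 117 had at least 100 counts in total, of which 33 were PMEs, 17 PMEs with inhibitor domain and 67 inhibitors. Median lengths were 972 bases for PMEs, 2057.5 bases for PMEs with inhibitor domain and 391 bases for inhibitors, and of the pectate lyases 34 of 83 had at least 100 counts. The 219 members carry only 72 distinct NR descriptions, so several unigenes may be pieces or near-identical copies of one gene, between which reads could be split. Classes rest on the domains found on each unigene, so a short unigene may lack a domain that its whole gene holds. The 4 most abundant PMEs, of 325, 283, 677 and 509 bases, have best Swiss-Prot hits named pectinesterase/pectinesterase inhibitor. How far unigene length set the class was not tested. Very short unigenes can have a high FPKM on few counts. The inhibitor Cluster-16487.110974, of 210 bases, had a mean of 5197 FPKM from 5655 counts over the 21 libraries. The NR description was of another kind of protein for 11 inhibitor-class unigenes, such as Cluster-16487.110476 (a CBS domain protein) and 4 unigenes described as Hsp70-Hsp90 organizing protein. By contrast, 79 of the 127 inhibitor-class unigenes had the carrot 21 kDa protein as their best Swiss-Prot hit, and this type held 42 of the 67 with at least 100 counts. That hit was pectinesterase inhibitor for at least 3 others and an inhibitor of fructosidase for at least 1. Whether the inhibitor-class unigenes act on PME was not tested.

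Summed over their members, both PME classes had a lower mean in CO2 4 d than in CK 0 d, and inhibitors had their highest mean in CO2 4 d. The PME sum was highest in CK 0 d, with a lowest, median and highest library at 12838, 16315 and 18048 FPKM, and was 5614, 7190 and 7234 FPKM in CK 4 d. It was 1370, 2902 and 3107 FPKM in CO2 4 d, so these 2 groups at 4 d do not overlap. The mean in CO2 4 d was 0.368 ± 0.151 of that in CK 4 d (n = 3). For ratios of means in this paragraph, ± is a standard deviation carried over from the libraries of both groups, not a standard error. In CO2+1-MCP 4 d the PME sum was 2873, 3618 and 5231 FPKM, which overlaps with CO2 4 d and lies below CK 4 d. The sum of PMEs with inhibitor domain was 1764, 2141 and 2274 FPKM in CK 4 d and 1368, 1417 and 1503 FPKM in CO2 4 d. Inhibitors moved the other way, from 35166, 35239 and 45083 FPKM in CK 4 d to 52003, 77706 and 101385 FPKM in CO2 4 d, with a ratio of means of 2.001 ± 0.707. In CO2 1 d the inhibitor sum was already 49624.5, 54066 and 81239 FPKM, which overlaps with CO2 4 d. It lay above CK 1 d (31084, 36315 and 41647 FPKM) and CO2+1-MCP 1 d (30282, 39300 and 41661 FPKM). The share of all counts taken by the PMEs was 0.692 of the CK 4 d share in CO2 4 d, a smaller drop than in summed FPKM. Summed FPKM weights short unigenes more. Total FPKM over all unigenes also differed, at 3.57e+06, 3.68e+06 and 3.59e+06 in CK 4 d A, B and C. It was 2.83e+06, 3.09e+06 and 2.99e+06 in CO2 4 d A, B and C. What sets the gap between both measures was not tested. With 3 libraries against 3 no exact permutation test on these sums can give a p under 0.10, and none is given.

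**Figure D1:**
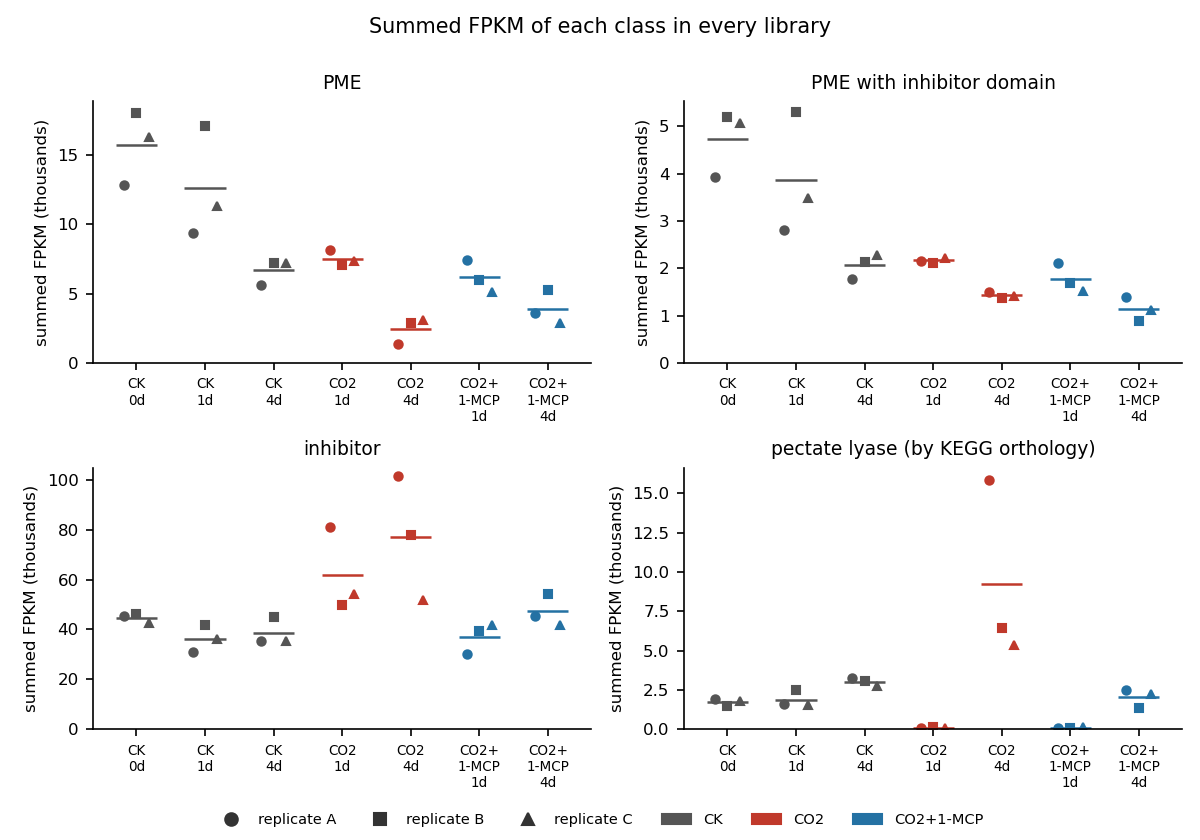
Summed FPKM (divided by 1000, on linear axes from 0) of each class in every library, for PMEs, PMEs with inhibitor domain, inhibitors and pectate lyases found by KEGG orthology. Marker shapes are replicates A, B and C, colors are treatments and bars are means of 3 libraries. The 3 CO2 4 d libraries lie below the CK 4 d libraries for PMEs and above them for inhibitors and pectate lyases, and pectate lyases are at 129 FPKM or less in all 6 CO2 and CO2+1-MCP libraries at 1 d.

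The PME sum was dominated by short unigenes with the same persimmon NR hit, pectinesterase 8. Cluster-16487.109743, of 325 bases, alone made up between 47.5% and 68.02% of the sum in the 7 groups. Its libraries A, B and C had 7224, 11639 and 10310 FPKM in CK 0 d and 3357, 4549 and 4278 FPKM in CK 4 d. In CO2 4 d they had 498, 1460 and 1546 FPKM, against 2115, 2638 and 1508 FPKM in CO2+1-MCP 4 d. Every CO2 4 d library was thus below every CK 4 d library, library A by far the lowest, whereas CO2 and CO2+1-MCP overlap at 4 d. The log2 fold change was -1.82 ± 0.36 in CO2 4 d against CK 4 d (adjusted p = 0.0396, edgeR), a fall that did not reach 5-fold, and -1.27 ± 0.20 in CK 4 d against CK 0 d (adjusted p = 0.0233, edgeR). The next 3 pectinesterase 8 unigenes by level, Cluster-16487.115501, Cluster-16487.112083 and Cluster-16487.112954, also fell in CK between 0 d and 4 d, by 1.33, 1.49 and 1.40 on the log2 scale. At 4 d their log2 fold changes between CO2 and CK were -1.55, -1.54 and -1.65, which did not pass (lowest adjusted p = 0.0575, edgeR).

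Among PMEs with inhibitor domain, Cluster-16487.111604 (described as pectinesterase in kiwifruit) followed the same course at a similar level. It held between 85.8% and 92.2% of the class sum in the 3 CK groups and in both 1 d groups treated with CO2. Its FPKM in libraries A, B and C was 3644, 4771 and 4608 in CK 0 d, 1491, 1861 and 1949 in CK 4 d, 206, 529 and 705 in CO2 4 d, and 880, 531 and 666 in CO2+1-MCP 4 d. No CO2 4 d library reached the CK 4 d libraries, and library A was again the lowest. The fall against CK 4 d was by 1.89 ± 0.37 on the log2 scale (adjusted p = 0.0391, edgeR), and that of CK 4 d against CK 0 d by 1.36 ± 0.14 (adjusted p = 0.00905, edgeR). Without this unigene the summed FPKM of the class in CO2 4 d was 3.24 times that in CK 4 d, instead of 0.694 with it.

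Another pair of abundant members followed a different course. The PME Cluster-16487.111271 and the PME with inhibitor domain Cluster-16487.110535 were lowest in CO2+1-MCP 1 d, with 12.4, 8.49 and 31.9 FPKM and 17.5, 9.02 and 54.4 FPKM, against 102, 222 and 138 FPKM and 132, 306 and 192 FPKM in CK 1 d (log2 fold change -3.13 ± 0.54 and -2.99 ± 0.67, adjusted p = 0.00615 and 0.0153, edgeR). By 4 d in CO2+1-MCP they had 272, 418 and 206 FPKM and 363, 236 and 312 FPKM. In CO2 4 d, libraries B and C had 123 and 164 FPKM for Cluster-16487.111271 and 130 and 217 FPKM for Cluster-16487.110535, but library A had 2.39 and 5.47 FPKM, the lowest of all 21 libraries for each, so the CO2 4 d group has no common level.

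Storage in air changed few members beyond 5-fold. Between CK 0 d and CK 1 d, 0 of 92 members were called by edgeR, where 0.0133% of all unigenes tested were, with 31 members at an unadjusted p below 0.05 (14.4% of all unigenes tested were) and 1 member called by DESeq2 (0.0630% of all unigenes tested). Between CK 0 d and CK 4 d, 1 of 92 members was called, against 1.67% of all unigenes tested (1.37% higher and 0.299% lower). This was the inhibitor Cluster-16487.110225, with 16.3, 23.3 and 23.2 FPKM at 0 d and 3.37, 4.18 and 4.25 FPKM at 4 d, a log2 fold change of -2.45 ± 0.24 (adjusted p = 0.00882, edgeR). The groups are well apart. Without CK 4 d A, or without B, 0 members were called by edgeR, with 36 and 39 at an unadjusted p below 0.05. Over all unigenes 65 were higher and 24 lower of 69242 without A, and 95 and 33 of 69831 without B. With a limit of 2-fold, 21 members were lower and 0 higher at 4 d, where 1.06% and 1.89% of all unigenes tested were. These 21 were 4 PMEs, 1 PME with inhibitor domain and 16 inhibitors, among them the abundant 21 kDa type inhibitor Cluster-16487.110597, at 3059, 3321 and 3425 FPKM at 0 d and 1060, 1121 and 1137 FPKM at 4 d (log2 fold change -1.61 ± 0.07, adjusted p = 0.00269, edgeR).

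**Figure D2:**
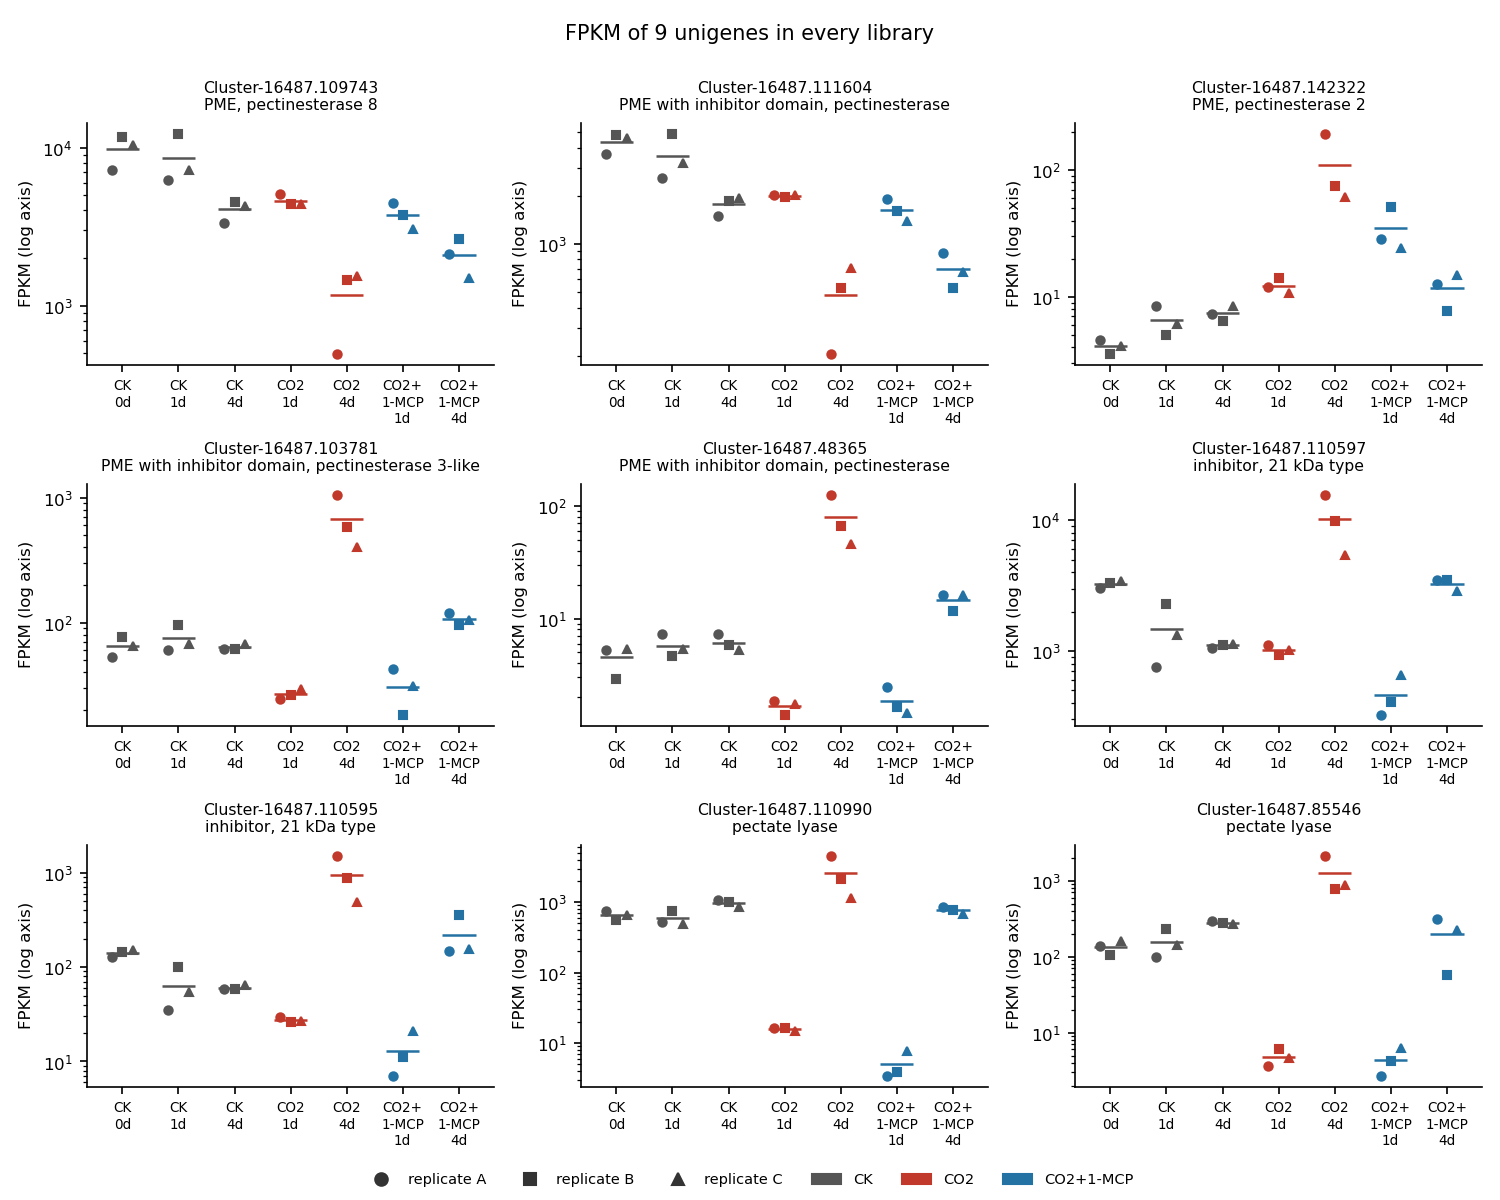
FPKM (log axes) of 9 unigenes in every library, with shapes for replicates A, B and C, colors for treatments and bars for the mean of 3 libraries. The abundant Cluster-16487.109743 and Cluster-16487.111604 are lowest in CO2 4 d and CO2+1-MCP 4 d, the next 5 are highest in CO2 4 d, and the pectate lyases Cluster-16487.110990 and Cluster-16487.85546 are below 20 FPKM in all 6 libraries of CO2 and CO2+1-MCP at 1 d.

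At the end of the CO2 treatment, at 1 d, the classes moved unequally. Against CK 1 d, 16 of 98 members were called in CO2 1 d, 11 higher and 5 lower, where 20.0% of all unigenes tested were called, 10.8% higher and 9.19% lower. The members as a whole were therefore near the background. By class, 6 of 26 PMEs were higher and 2 lower, 4 of 15 PMEs with inhibitor domain were higher and 0 lower, and of 57 inhibitors 1 was higher and 3 were lower. In CO2+1-MCP 1 d against the same control libraries, 28 of 98 members were called, 16 higher and 12 lower, with 17.6% called among all unigenes tested (9.26% higher and 8.29% lower). These were 9 PMEs, 5 PMEs with inhibitor domain and 2 inhibitors among those higher, and 3, 2 and 7 among those lower. Both comparisons share the CK 1 d libraries, so their likeness is not independent.

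The 10 unigenes with the catalytic domain that were called higher in CO2 1 d had at most 12 counts in any CK 1 d library. In CO2+1-MCP 1 d the calls also took in unigenes that were measured well in air, among them Cluster-16487.142322 (131, 77 and 116 counts in CK 1 d) and Cluster-16487.145300 (83, 148 and 72 counts). Cluster-16487.193932 (Swiss-Prot hit to Arabidopsis PME7) had 0.31, 0.86 and 0.38 FPKM in CK 1 d, 21.9, 19.1 and 21.9 FPKM in CO2 1 d, and 59.6, 8.21 and 7.57 FPKM in CO2+1-MCP 1 d. By 4 d it was back at 5.90, 0.51 and 0.35 FPKM in CO2 and at no more than 0.34 FPKM in CO2+1-MCP. All treated libraries at 1 d thus exceeded the controls, by 5.29 ± 0.41 on the log2 scale in CO2 (adjusted p = 0.000325, edgeR), and library A of CO2+1-MCP stood far above B and C. Cluster-16487.17719 (PME with inhibitor domain, hit to Arabidopsis PME17) had no count in CK 0 d or CK 1 d and 17.2, 15.97 and 18.9 FPKM in CO2 1 d, at least 215-fold higher (adjusted p = 0.000363, edgeR). It stayed at 1.61, 4.25 and 3.68 FPKM in CO2 4 d, where CK had at most 0.09 FPKM. Cluster-16487.217505 (PME with inhibitor domain, hit to Arabidopsis PME6) had no count in CK 1 d and 6.46, 4.89 and 6.41 FPKM in CO2 1 d, at least 182-fold higher (adjusted p = 0.000589, edgeR). It was at or below 0.20 FPKM in every library at 4 d. Cluster-16487.28369, also with both domains and with a hit to an orange PME, rose by 4.39 ± 0.32 on the log2 scale, from 0.21, 0.42 and 0.29 FPKM to 5.97, 6.64 and 7.61 FPKM (adjusted p = 0.000257, edgeR). In CO2+1-MCP 1 d these 3 unigenes with both domains had 25.4, 9.78 and 15.4 FPKM, 4.01, 3.70 and 4.83 FPKM, and 18.9, 8.84 and 12.7 FPKM, in the same order, all above every CK 1 d library. Their highest level, below 30 FPKM, is small beside the level of the pectinesterase 8 unigenes.

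Other PMEs were lower at 1 d. Cluster-16487.131025 (described as PME/inhibitor 34 in Jatropha) fell from 4.80, 9.17 and 6.70 FPKM in CK 1 d to 0.74, 0.98 and 1.04 FPKM in CO2 1 d, by 2.95 ± 0.33 on the log2 scale (adjusted p = 0.00115, edgeR). Cluster-16487.103781, the PME with inhibitor domain with the highest mean of its class in CO2 4 d, fell from 60.3, 95.5 and 67.8 FPKM to 24.6, 26.1 and 29.4 FPKM, by 1.54 ± 0.20 (adjusted p = 0.00185, edgeR), less than 5-fold. None of the treated libraries reached the lowest control library in either case. Among inhibitors the clearest fall was that of the 21 kDa type Cluster-16487.108882, from 65.0, 52.2 and 51.4 FPKM to 6.61, 6.95 and 7.53 FPKM, by 3.05 ± 0.18 (adjusted p = 0.000130, edgeR). The 2 most abundant inhibitors, Cluster-16487.111720 and Cluster-16487.109773, rose less than 2-fold, by 0.90 ± 0.28 and 0.88 ± 0.25 on the log2 scale (adjusted p = 0.0415 and 0.0306, edgeR). Cluster-16487.111720 had 8248, 8988 and 10461 FPKM in CK 1 d and 22435, 13494 and 15836 FPKM in CO2 1 d, with library A the highest, and 8088, 10484 and 11084 FPKM in CO2+1-MCP 1 d, which overlaps with the controls and not with CO2.

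Most of the pectate lyase signal was gone at 1 d. Of 20 tested, 7 were lower and 2 higher in CO2 1 d against CK 1 d, and of 19 tested, 8 were lower and 1 higher in CO2+1-MCP 1 d, shares of lower calls of 35.0% and 42.1% beside 9.19% and 8.29% over all unigenes tested. Their summed FPKM had a lowest, median and highest library of 1513, 1589 and 2479 in CK 1 d, 77.5, 97.5 and 107 in CO2 1 d, and 48.3, 54.4 and 129 in CO2+1-MCP 1 d. The most abundant, Cluster-16487.110990 (probable pectate lyase 18), had 527, 746 and 487 FPKM in CK 1 d, 16.3, 16.2 and 15.0 FPKM in CO2 1 d, and 3.42, 3.84 and 7.67 FPKM in CO2+1-MCP 1 d. Each treated group lies wholly below the controls, with a log2 fold change of -5.26 ± 0.25 for CO2 (adjusted p = 8.49e-05, edgeR) and one of -6.87 ± 0.41 for CO2+1-MCP (adjusted p = 0.000241, edgeR). Cluster-16487.85546 (hit to pectate lyase 20) went from 99.3, 233 and 141 FPKM to 3.67, 6.0 and 4.58 FPKM in CO2 1 d and 2.71, 4.24 and 6.33 FPKM in CO2+1-MCP 1 d. The 2 that were higher in CO2 1 d were Cluster-16487.196571, at 0.63, 0.37 and 0.88 FPKM and with no count in CK 1 d, and Cluster-16487.27620, described as pectate lyase in kiwifruit. The latter had no count in CK 1 d and 2.46, 6.57 and 7.01 FPKM in CO2 1 d, at least 161-fold higher (adjusted p = 0.00174, edgeR). In CO2 4 d it again had no count.

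**Figure D3:**
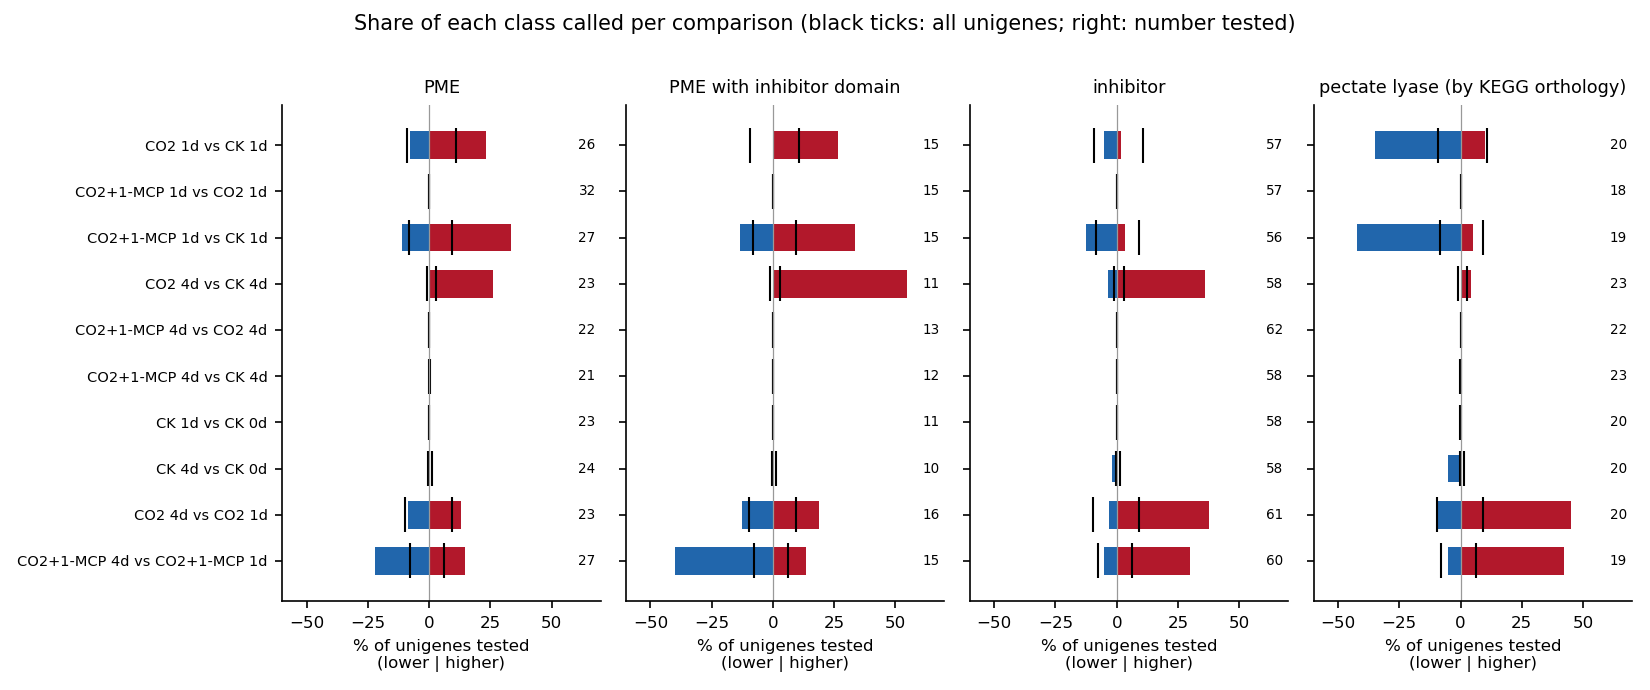
Share of the unigenes tested in each class that was called higher (to the right) or lower (to the left) by edgeR in the 10 comparisons of 2 groups. Black ticks mark the share over all unigenes tested and the figures at the right the number tested. PMEs (26.1% higher), PMEs with inhibitor domain (54.5%) and inhibitors (36.2%) exceed the background of 2.81% in CO2 4 d against CK 4 d, and the pectate lyases (35.0% and 42.1% lower) exceed the background of lower calls in both comparisons with CK 1 d.

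At 4 d, 3 d after the fruit had been returned to air, members were mostly higher in CO2 than in CK. Of 92 members tested, 33 were higher and 2 lower, against 2.81% and 1.07% of all unigenes tested (3.88% in either direction), and 55 members were at an unadjusted p below 0.05 beside 23.8% of all unigenes tested. DESeq2 called 41 higher and 2 lower, including all 35 (2.35% of all unigenes tested, 1.52% higher and 0.832% lower). By class, 6 of 23 PMEs, 6 of 11 PMEs with inhibitor domain and 21 of 58 inhibitors were higher, and both unigenes that were lower were inhibitors. The median log2 fold change was -0.70 over the PMEs, 3.50 over the PMEs with inhibitor domain and 0.93 over the inhibitors, beside -0.08 over all unigenes tested. The 33 higher members carry at most 13 distinct NR descriptions, so some may be pieces or copies of one gene, which was not tested. In each of the 35 the CO2 4 d and CK 4 d libraries did not overlap. The 35 were called on these same libraries, so the lack of overlap adds no support. CO2 4 d A was the most extreme of its group in 30 of the 33 higher and in both lower members. It is one of the libraries with few unigenes detected. Without CK 4 d A, B or C, or without CO2 4 d B, 0 members were called by edgeR, with lowest adjusted p values of 0.134, 0.120, 0.112 and 0.0533 and 56 or 57 members still at an unadjusted p below 0.05, and over all unigenes 0 were called too. Without CO2 4 d A, 24 of the 33 higher members were called, and without CO2 4 d C all 35 and 4 more. Over all unigenes 1049 were higher and 405 lower of 72179 without A, and 2637 and 2475 of 68976 without C.

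The PMEs that rose were not those that led in air. In the pectinesterase 2 family, named from its persimmon NR hit, Cluster-16487.142322 had 7.29, 6.40 and 8.52 FPKM in CK 4 d, 194, 75.5 and 61.1 FPKM in CO2 4 d, and 12.7, 7.70 and 14.8 FPKM in CO2+1-MCP 4 d. CO2 4 d lies far above both other groups, with A the highest, and the rise against CK was by 4.09 ± 0.63 on the log2 scale (adjusted p = 0.0267, edgeR). In this family Cluster-16487.142323, Cluster-16487.142324 and Cluster-16487.142320 were called as well, at 17.96, 9.43 and 12.1 FPKM or less in CO2 4 d, the last with no count in CK 4 d and at least 250-fold higher. At 1 d Cluster-16487.142322 was already at 11.9, 14.0 and 10.8 FPKM in CO2 against 8.44, 4.97 and 6.10 FPKM in CK, and at 28.8, 51.3 and 24.4 FPKM in CO2+1-MCP, where it was called (log2 fold change 2.47 ± 0.40, adjusted p = 0.00536, edgeR). The remaining PMEs called were Cluster-16487.103782, at 55.2, 39.5 and 22.4 FPKM against 6.93, 6.86 and 8.83 FPKM, and Cluster-16487.120036, at 7.62, 7.10 and 5.64 FPKM against 1.68, 0.62 and 1.66 FPKM.

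Of the PMEs with inhibitor domain that were called, Cluster-16487.103781 (pectinesterase 3-like) was the most abundant in CO2 4 d, although in library C it remained below Cluster-16487.111604, at 401 against 705 FPKM. It had 61.4, 61.5 and 67.0 FPKM in CK 4 d, 1052, 584 and 401 FPKM in CO2 4 d, and 119, 95.6 and 105 FPKM in CO2+1-MCP 4 d. The 3 groups do not overlap, and CO2 exceeded CK by 3.59 ± 0.52 on the log2 scale (adjusted p = 0.0247, edgeR). Cluster-16487.48365 (pectinesterase 18 in kiwifruit) ran in parallel, with 7.29, 5.82 and 5.21 FPKM in CK 4 d, 125, 65.8 and 45.8 FPKM in CO2 4 d and 16.3, 11.6 and 16.1 FPKM in CO2+1-MCP 4 d (log2 fold change against CK 3.87 ± 0.55, adjusted p = 0.0247, edgeR). The pair with the persimmon hit pectinesterase 1, whose Swiss-Prot hit is a peach fruit PME, also rose. Cluster-16487.145300 went from 1.91, 1.34 and 0.71 FPKM to 38.9, 17.8 and 14.1 FPKM and was at 0.61, 0.62 and 0.64 FPKM in CO2+1-MCP 4 d. Cluster-16487.107609 went from 2.76, 1.58 and 1.46 FPKM to 33.0, 10.6 and 14.2 FPKM, with 2.22, 1.34 and 2.04 FPKM in CO2+1-MCP 4 d. Both had been between 5.56 and 35.1 FPKM in every CO2 and CO2+1-MCP library at 1 d, so in CO2+1-MCP they were lower at 4 d than at 1 d, by 4.96 ± 0.83 and 3.47 ± 0.62 on the log2 scale (adjusted p = 0.0107 and 0.0125, edgeR).

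Inhibitors made up 23 of the 35 calls at 4 d and 58 of the 92 members tested, so both parts were alike. Of 38 unigenes of the 21 kDa type that were tested, 16 were higher and 0 lower, with a median log2 fold change of 1.23. Cluster-16487.110597 had 1060, 1121 and 1137 FPKM in CK 4 d, 15625, 9863 and 5441 FPKM in CO2 4 d and 3498, 3490 and 2861 FPKM in CO2+1-MCP 4 d, an ordering without overlap, with CO2 above CK by 3.39 ± 0.54 on the log2 scale (adjusted p = 0.0275, edgeR). Cluster-16487.110949 and Cluster-16487.110595, with the same hypothetical kiwifruit protein as their NR hit, were at 3262, 2517 and 1271 FPKM and at 1511, 873 and 493 FPKM in CO2 4 d, against 242, 243 and 256 FPKM and 58.3, 58.4 and 64.5 FPKM in CK 4 d. In all 3 unigenes every CO2 4 d library exceeded every CK 4 d library, with A the highest and C the lowest of the CO2 group. The 2 most abundant inhibitors did not pass at 4 d, with log2 fold changes of 0.62 ± 0.31 for Cluster-16487.111720 and 0.72 ± 0.32 for Cluster-16487.109773 (adjusted p = 0.296 and 0.241, edgeR). The members that were lower both have Swiss-Prot hits to full PMEs. Cluster-16487.112079, of 317 bases and with a hit to tomato PMEU1, had 93.9, 132 and 142 FPKM in CK 4 d and 15.3, 23.6 and 27.0 FPKM in CO2 4 d (log2 fold change -2.47 ± 0.34, adjusted p = 0.0241, edgeR). Cluster-16487.72276, with the persimmon hit pectinesterase 4, had 17.5, 21.1 and 20.3 FPKM and 1.56, 2.24 and 7.82 FPKM (log2 fold change -2.38 ± 0.51, adjusted p = 0.0472, edgeR).

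Pectate lyases had returned by 4 d. Of 23 tested in CO2 4 d against CK 4 d, 1 was higher and 0 lower, 4.35% beside the background of 2.81%, while against CO2 1 d 9 of 20 were higher and 2 lower, where 18.9% of all unigenes tested were called (9.22% higher and 9.66% lower). Cluster-16487.110990 had 1069, 1021 and 859 FPKM in CK 4 d, 4542, 2156 and 1142 FPKM in CO2 4 d and 863, 769 and 682 FPKM in CO2+1-MCP 4 d. CO2 lies above the other groups, but its libraries differ 4-fold and the log2 fold change of 1.61 ± 0.61 against CK 4 d did not pass (adjusted p = 0.172, edgeR). The unigene that was called, Cluster-16487.85537 (hit to pectate lyase 8, of 359 bases), had 236, 215 and 216 FPKM in CK 4 d, 1817, 1036 and 726 FPKM in CO2 4 d and 206, 148 and 177 FPKM in CO2+1-MCP 4 d. It exceeded CK by 2.59 ± 0.48 on the log2 scale (adjusted p = 0.0363, edgeR), and it was not called without CO2 4 d A, B or any of the CK 4 d libraries. Between 1 d and 4 d in CO2 it rose by 8.91 ± 0.72 (adjusted p = 0.00122, edgeR), and Cluster-16487.110990 by 7.46 ± 0.78 (adjusted p = 0.00204, edgeR).

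The effect of CO2 was compared between 1 d and 4 d directly, as the difference of both log2 fold changes against CK in a fit of 12 libraries. The difference was called positive for 26 of 112 members and called negative for 5, where 12.1% of all unigenes tested were called (6.79% positive and 5.33% negative), and for pectate lyases it was called positive for 11 of 27 and called negative for 1. The median difference over all unigenes tested was 0.19, and over the 112 members 1.08. By class 3 PMEs, 4 PMEs with inhibitor domain and 19 inhibitors had a difference called positive. It was 5.08 ± 0.58 for Cluster-16487.103781 (adjusted p = 0.000328, edgeR), which was below CK at 1 d and above it at 4 d. The difference was 6.81 ± 0.75 for the pectate lyase Cluster-16487.110990 (adjusted p = 0.000280, edgeR) and 8.15 ± 0.78 for Cluster-16487.85537 (adjusted p = 0.000141, edgeR). Negative differences came from Cluster-16487.17719 and Cluster-16487.217505, high at 1 d (-5.09 ± 1.27 and -9.30 ± 2.07, adjusted p = 0.0435 and 0.0152, edgeR), although with a control group without counts these fitted values have no fixed size. For the abundant Cluster-16487.109743 the difference of -1.005 ± 0.470 did not pass (adjusted p = 0.171, edgeR). In CO2 4 d against CO2 1 d, 29 of 100 members were higher and 6 lower, beside 9.22% and 9.66% of all unigenes tested, and 23 of the 29 were inhibitors.

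**Figure D4:**
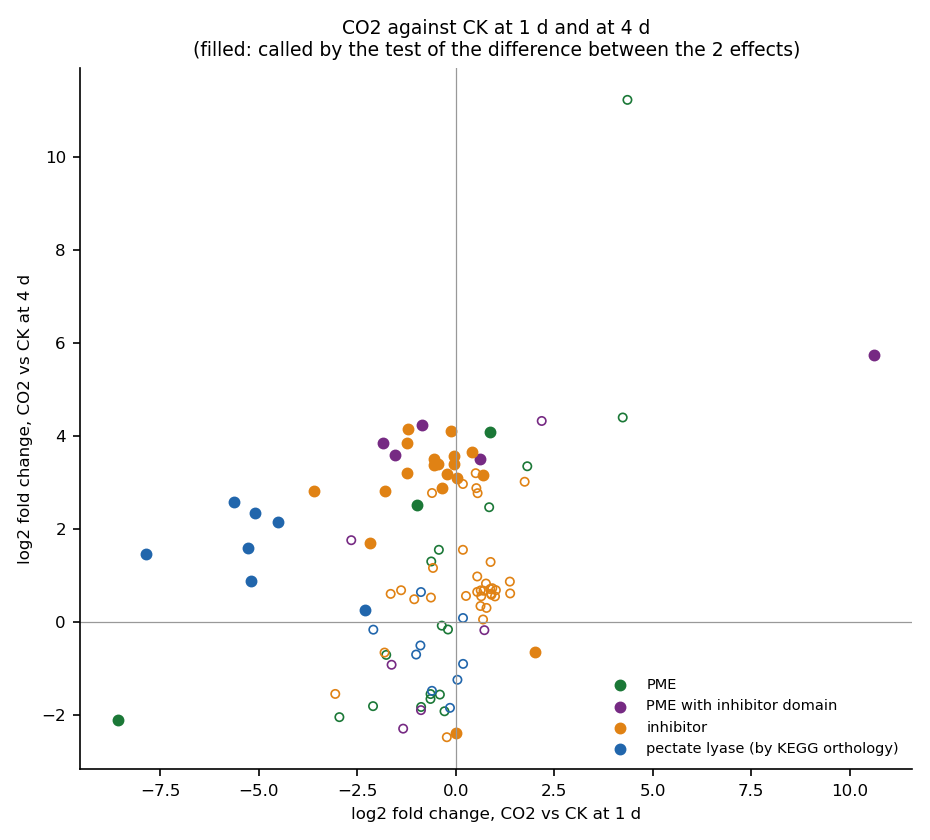
Log2 fold change of CO2 against CK at 1 d (x axis) and at 4 d (y axis) for the members and pectate lyases tested at both times, which are 19 PMEs, 11 PMEs with inhibitor domain, 53 inhibitors and 16 pectate lyases. Filled points were called by the test of the difference between both effects, and the points farthest out are unigenes with no count in one group, whose fitted values are no bounds. The 7 filled pectate lyases lie at the left, below 0 at 1 d and above 0 at 4 d, and most of the 19 filled inhibitors lie near 0 at 1 d and above 2 at 4 d.

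The comparison of CO2+1-MCP with CO2 asks which of these changes depend on ethylene perception. At 1 d, 0 of 104 members were called by edgeR, as were 0% of all unigenes tested, with 25 members at an unadjusted p below 0.05 (7.42% of all unigenes tested were), a lowest adjusted p of 0.407, and 0 called by DESeq2 (0.160% of all unigenes tested). At 4 d, 0 of 97 members were called by edgeR (0% of all unigenes tested), with 23 at an unadjusted p below 0.05 beside 6.24% of all unigenes tested, and the lowest adjusted p was 0.152, for Cluster-16487.145300. DESeq2 called 9 members, all lower in CO2+1-MCP (0.659% of all unigenes tested were called, 0.578% lower), and a fit of all 7 groups with edgeR called 11, all lower (0.925% of all unigenes tested, 0.867% lower). All 9 members called by DESeq2 were PMEs or PMEs with inhibitor domain and were among the 11. They were 4 unigenes of the pectinesterase 2 family, both of pectinesterase 1, Cluster-16487.103781, Cluster-16487.48365 and Cluster-16487.30857 (pectinesterase in kiwifruit), which had 33.7, 19.7 and 9.35 FPKM in CO2 4 d and 2.45, 2.15 and 1.78 FPKM in CO2+1-MCP 4 d. DESeq2's log2 fold change was -5.55 for Cluster-16487.145300 (adjusted p = 3.13e-10) and -2.97 for Cluster-16487.103781 (adjusted p = 0.00193), and edgeR's was -5.48 ± 0.61 and -2.91 ± 0.49 (adjusted p = 0.152 and 0.167). The fold changes are thus alike and the calls depend on the tool. The inhibitors that were called higher in CO2 4 d against CK 4 d were not called by DESeq2 in this comparison. The other 2 of the 11 called by the fit of all groups were inhibitors, Cluster-16487.110595 (log2 fold change -2.38, adjusted p = 0.0269, edgeR) and Cluster-16487.114333 (-2.44, adjusted p = 0.0436, edgeR). The more abundant inhibitor Cluster-16487.110597, at 3498, 3490 and 2861 FPKM in CO2+1-MCP 4 d, lies below all 3 CO2 4 d libraries (log2 fold change -1.83 ± 0.51, adjusted p = 0.395, edgeR). DESeq2 and the fit of all groups also called the same 4 pectate lyases lower, Cluster-16487.85537, Cluster-16487.85545, Cluster-16487.85546 and Cluster-16487.85547.

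Against CK at 4 d, 0 of 91 members were called in CO2+1-MCP by edgeR, beside 0.202% of all unigenes tested, with 41 members at an unadjusted p below 0.05 (12.8% of all unigenes tested were) and 4 called by DESeq2 (0.654% of all unigenes tested). Cluster-16487.72276, which is not among these 4, passed the adjusted p without reaching 5-fold (log2 fold change -2.15 ± 0.21, adjusted p = 0.0275, edgeR), at 5.12, 4.11 and 5.53 FPKM against 17.5, 21.1 and 20.3 FPKM. Without CO2+1-MCP 4 d B, the library with the low correlations, 1 member was called. Of all 72647 unigenes tested in that fit, 514 were higher and 525 lower. The difference between the effects of 1-MCP at 4 d and at 1 d was called for 0 of 120 members by edgeR (0.0271% of all unigenes tested), with 19 at an unadjusted p below 0.05 beside 9.07%, and for 9 members, all negative, by DESeq2 (0.492% of all unigenes tested, 0.333% negative). The lowest adjusted p was that of Cluster-16487.142322 (difference -5.17 ± 0.78, adjusted p = 0.0604, edgeR), which was higher with 1-MCP than without it at 1 d and lower at 4 d. Without CO2 4 d A this test called 1 member and without CO2 4 d C it called 6. Over all unigenes it called 6 positive and 48 negative of 87755 without A, and 27 and 233 of 85597 without C. Within CO2+1-MCP, 24 of 102 members were higher and 15 lower at 4 d than at 1 d, where 14.0% of all unigenes tested were called (6.18% higher and 7.80% lower). The 15 were 6 PMEs, 6 PMEs with inhibitor domain and 3 inhibitors, and 18 of the 24 were inhibitors. Without CO2+1-MCP 1 d A, 5 were called higher and 7 lower, without CO2+1-MCP 1 d B, 7 higher and 8 lower, and without CO2+1-MCP 4 d A, 15 higher and 6 lower. Over all unigenes these fits called 1275 higher and 2015 lower of 70551, 1590 and 2644 of 72528, and 1480 and 2728 of 66555.

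**Figure D5:**
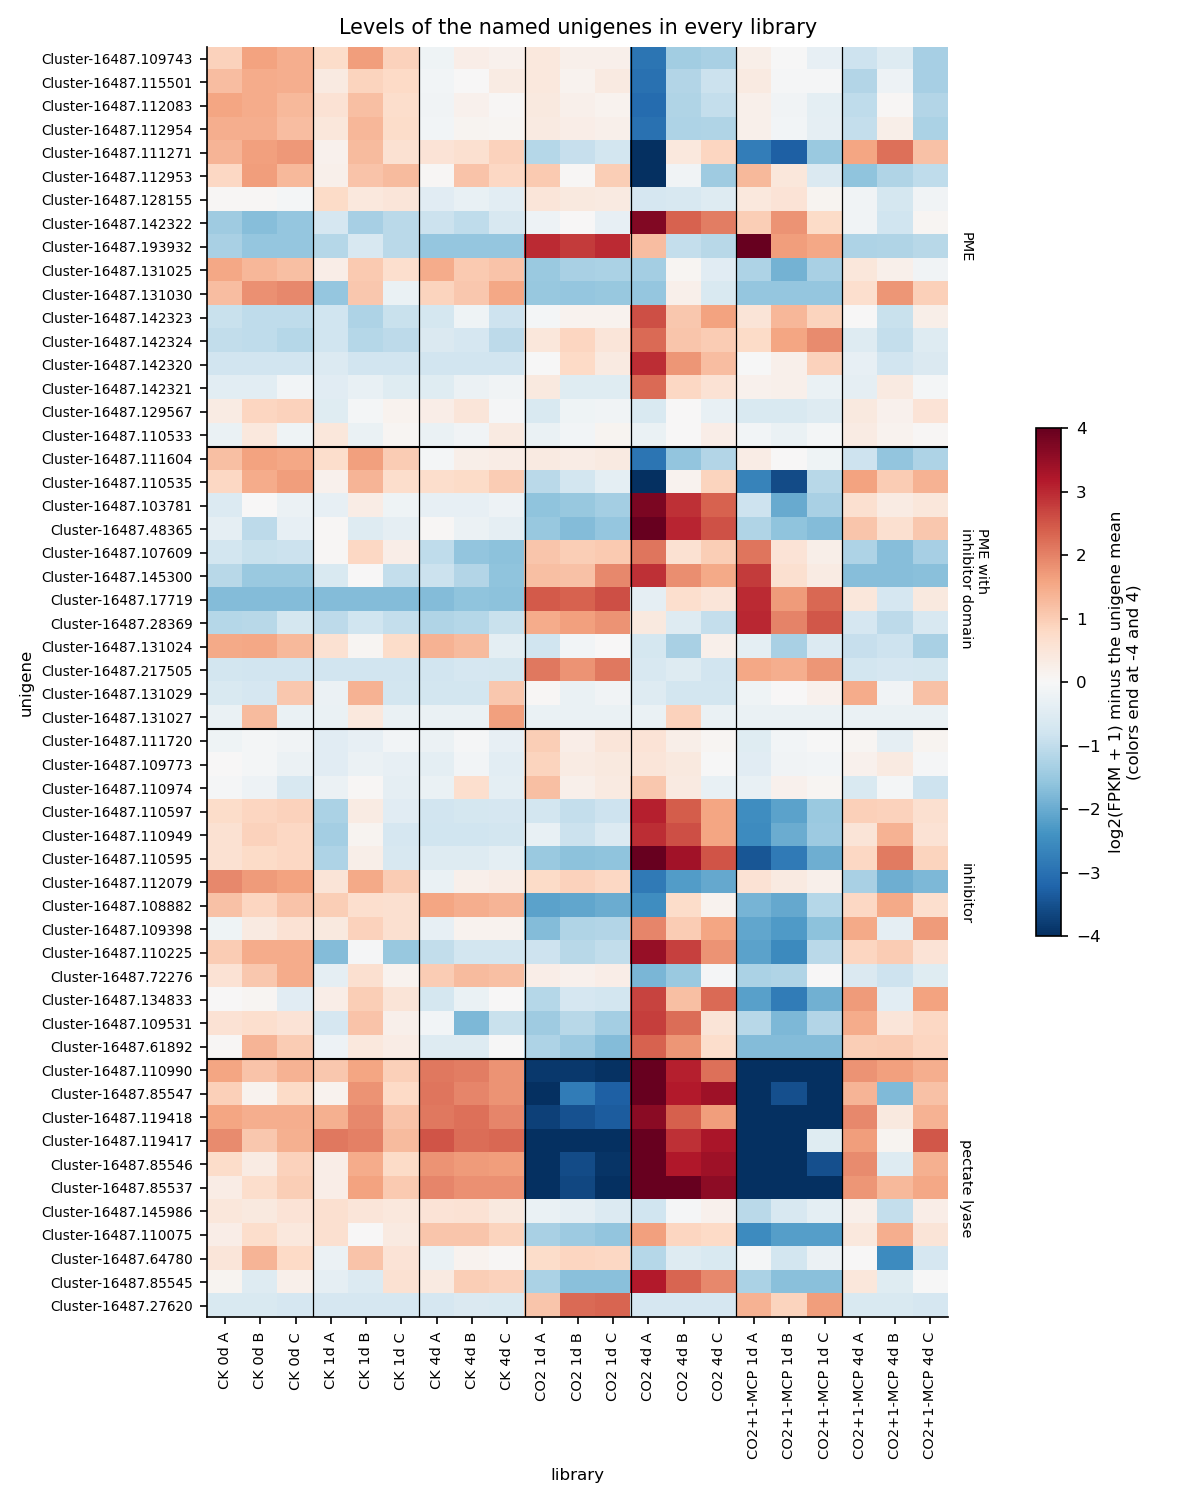
Levels of 54 named unigenes in every library, as log2(FPKM + 1) minus the mean of the unigene over the 21 libraries, with colors ending at -4 and 4. Rows are ordered by class and by mean FPKM within a class, and vertical lines part the 7 groups. The pectinesterase 8 unigenes at the top go from red in CK 0 d to blue in CO2 4 d, the first 6 pectate lyases are dark blue in nearly every library of both CO2 groups at 1 d and red in CO2 4 d, and Cluster-16487.107609 and Cluster-16487.145300 are red in both CO2 groups at 1 d and in CO2 4 d but blue in CO2+1-MCP 4 d.

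Other enzymes of pectin breakdown were counted from lists of the same annotation. In CO2 4 d against CK 4 d, 12 of 57 polygalacturonases tested were higher and 1 lower, 9 of 17 rhamnogalacturonan lyases higher and 0 lower, 9 of 42 beta-galactosidases higher and 0 lower, and 3 of 48 pectin acetylesterases higher and 1 lower, beside the background of 2.81% and 1.07%. Of 108 unigenes with the domain of putative methyltransferases, some of which methylate pectin in the Golgi in other plants, 4 were higher and 2 lower. In CO2 1 d against CK 1 d the corresponding counts were 9 and 6 of 57, 1 and 0 of 8, 2 and 5 of 36, 8 and 2 of 43, and 5 and 15 of 105, beside a background of 10.8% higher and 9.19% lower. With 1-MCP against CO2 alone, none of these lists had a unigene called by edgeR at 1 d or at 4 d, where 0% of all unigenes tested were. These zeros are thus no result about the lists. At 4 d the median log2 fold change was -4.92 over the 17 rhamnogalacturonan lyases tested. It lay between -0.25 and 0.22 for each of the other lists.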

How the data were processed

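Flesh RNA of 21 libraries (7 groups of 3, grouped by their GEO labels) was sequenced and assembled without a genome by the authors with Trinity (min_kmer_cov 2), and the submitters' processing notes name RSEM. The authors deposited, for each library, an estimated count and an FPKM value per unigene, the latter normalized for length and depth, together with 1 annotation table. Estimated counts were rounded to whole numbers. Total counts ranged from 14644843 to 24943140 per library, and a floor of 3 counts over a group limited what could be detected.

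Each pair of groups was fitted with edgeR 4.0.16 in R 4.3.3 (filterByExpr, TMM scaling, quasi-likelihood test, Benjamini–Hochberg adjustment over all unigenes tested), and a call needed an adjusted p below 0.05 and a fold above 5, the limits of the study's methods. The study applied these limits with the DESeq package, for which edgeR stands in here, so the calls are not those of the study. Differences between effects were fitted over 12 libraries. The fits were also run on simulated counts with known changes. Those counts had less spread between libraries than the real ones, so the run does not show how the tests perform here. Alternatives were DESeq2 1.42.0, no filter, RLE scaling, a joint fit of all 7 groups, a block for the letter of the replicate, a fold above 2 and each library left out. Added after seeing the data were pectate lyases by KEGG orthology, rhamnogalacturonan lyases and beta-galactosidases by NR description, the share of counts, class sums without each library, and the counts without the 11 members described as another protein.

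Named were the 4 most abundant members of each class with at least 100 counts, in each comparison the 3 highest and 3 lowest fold changes among called members with a mean of at least 5 FPKM (or the 3 lowest p where none was called), and members with a persimmon NR hit and at least 100 counts. Cluster-16487.30857, Cluster-16487.103782, Cluster-16487.120036, Cluster-16487.110476, Cluster-16487.114333 and Cluster-16487.196571 were named after their values were seen. Pectate lyases were named by the same rule. Members and lists were chosen with earlier results of these data known. Green tissue markers were sought by Pfam entry and 0 unigenes held one. Tables were handled with Python 3.11.15 and pandas 2.3.3, and figures drawn with matplotlib 3.10.9.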

Additional observations from a re-analysis of the deposited data

Results flagged for a closer look

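The effect of CO2 against CK differed between 4 d and 1 d, by the test of the difference in edgeR, for 15 named members and 9 named pectate lyases. Several of these were named for their rank in this same test, so the naming in part sets both counts. Over all unigenes tested 12.1% were called. Values are the log2 fold change at 4 d minus that at 1 d.

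Among PMEs and PMEs with inhibitor domain the difference was 2.82 for Cluster-16487.107609, 3.17 for Cluster-16487.142322, 5.08 for Cluster-16487.103781 and 5.65 for Cluster-16487.48365. It was -5.09 for Cluster-16487.17719 and -9.30 for Cluster-16487.217505, both without counts in CK 1 d.

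Among inhibitors the difference was 3.41 for Cluster-16487.110949, 3.83 for Cluster-16487.109398, 3.88 for Cluster-16487.110597, 4.16 for Cluster-16487.110225 and 4.54 for Cluster-16487.134833. It was 5.32 for Cluster-16487.110595, 6.36 for Cluster-16487.61892 and 6.86 for Cluster-16487.109531, and -2.45 for Cluster-16487.72276.

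Among pectate lyases the difference was 2.50 for Cluster-16487.110075, which has the persimmon hit pectate lyase 1. It was 6.03 for Cluster-16487.119418, 6.11 for Cluster-16487.85545, 6.61 for Cluster-16487.85547, 6.81 for Cluster-16487.110990, 7.40 for Cluster-16487.85546, 8.15 for Cluster-16487.85537 and 8.54 for Cluster-16487.119417, a unigene of 205 bases without counts in CO2 1 d. Cluster-16487.27620, without counts in CK 1 d and CO2 4 d, had -13.44, a fitted value that is no bound.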

How the results depend on the processing

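Counts of members called in CO2 1 d against CK 1 d were 35 with a fold above 2, 29 with DESeq2, 27 without the filter, and 25 with all 7 groups in one fit, instead of 16. Over all unigenes tested a fold above 2 called 17.7% higher and 17.6% lower. DESeq2 called 18047 of 218785 unigenes (8.25%), no filter 18151 of 218785 (8.30%) and all 7 groups 15841 of 90891 (17.4%). The main test called 12046 of 60190 (20.0%). Here and below these shares are over unlike numbers of unigenes, so a lower share need not mean fewer calls. For CO2+1-MCP 1 d against CK 1 d a fold above 2 gave 44, beside 15.6% higher and 15.8% lower over all unigenes tested. For CO2+1-MCP 4 d against CO2 4 d, DESeq2 gave 9, no filter 16 and all 7 groups 11. Over all unigenes tested these gave 0.659%, 1.07% and 0.925%. Against CK 4 d a fold above 2 gave 1, DESeq2 4, no filter 1 and all 7 groups 2. There a fold above 2 called 0.253% of all unigenes tested higher and 0.0498% lower. DESeq2 called 0.654% of them, no filter 0.218% and all 7 groups 0.630%. CK 1 d against CK 0 d gave 1 with DESeq2, beside 0.0630% of all unigenes tested. CK 4 d against CK 0 d gave 21 with a fold above 2 and 0 with all 7 groups. Over all unigenes tested the former called 1.89% higher and 1.06% lower, and the latter 0.652%. CO2 4 d against CO2 1 d gave 56 without the filter, beside 8.58% of all unigenes tested. The difference between the 1-MCP effects gave 9 with DESeq2, 9 without the filter and 7 with all 7 groups. Over all unigenes DESeq2 called 0.492%. No filter gave 242 positive and 814 negative of 238490, and all 7 groups 67 and 409 of 90891. As a share of counts, CO2 4 d over CK 4 d was 0.692 for PMEs and 0.857 for PMEs with inhibitor domain, and without its most abundant member the latter class had 3.24 in FPKM. The causes of these shifts were not tested.

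The labels do not say whether the replicate letters pair the libraries, and the values do not settle it. In 0 of 10 pairs of groups did all 3 letters correlate above 0.1. Between CO2+1-MCP 4 d and CO2 4 d, however, letters B and C had correlations of 0.386 and 0.265, and A 0.041. With the replicate block the calls were 9 in CO2 1 d against CK 1 d, 18 in CO2+1-MCP 1 d against CK 1 d, 0 in CO2 4 d against CK 4 d (edgeR, lowest adjusted p 0.0685, 54 members at an unadjusted p below 0.05), 0 in CK 4 d against CK 0 d, and 14 in CO2+1-MCP 4 d against 1 d. Over all unigenes the block gave, in this order, 4716 higher and 3325 lower of 60190, then 3979 and 2807 of 59566. The next 2 comparisons had 0 calls, and the last 914 and 1594 of 59934.

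Leaving out each library in turn gave 15 to 19 calls in CO2 1 d against CK 1 d, 22 to 30 in CO2+1-MCP 1 d against CK 1 d, 0 to 39 in CO2 4 d against CK 4 d, 0 to 1 in CO2+1-MCP 4 d against CK 4 d, 0 to 1 in CK 4 d against CK 0 d, 29 to 46 in CO2 4 d against 1 d, 12 to 35 in CO2+1-MCP 4 d against 1 d, 26 to 37 for the difference in CO2 effect and 0 to 6 for that in 1-MCP effect. Calls over all unigenes also changed between these fits, so the ranges are no result about the members alone. The ratio of summed FPKM in CO2 4 d over CK 4 d ranged from 0.320 to 0.450 for PMEs, 0.647 to 0.732 for PMEs with inhibitor domain, 1.68 to 2.33 for inhibitors and 1.96 to 3.71 for pectate lyases. Over the named unigenes tested in each comparison, most of them never called, the outcome was the same for 496 fold changes, 63 newly passed the adjusted p of 0.05 and 2 no longer passed it with DESeq2. The same 3 counts were 559, 0 and 2 with RLE scaling, 496, 40 and 25 with all 7 groups, 496, 58 and 7 without the filter, 488, 0 and 73 with the replicate block, and 3644, 53 and 305 over all fits that left out a library.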
